A study of Mus musculus with 8 samples.

Results

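The integrated stress response (ISR) genes described here are 10 of the 29955 gene names listed for each library. They were taken by symbol, without regard to their values, as the 4 kinases of the translation initiation factor eIF2α (Eif2ak1, Eif2ak2, Eif2ak3 and Eif2ak4), their substrate (Eif2s1), the 2 regulatory subunits that direct protein phosphatase 1 to it (Ppp1r15a and Ppp1r15b), the transcription factor Atf4, and the mitochondrial pair Oma1 and Opa1. RNA-seq of mouse bone marrow cells was available for 4 groups of 2 libraries each. WT LSK and Ripk3-/- LSK cells were sorted as Lin- Sca1+ Kit+, and WT LK and Ripk3-/- LK cells are labelled Lin- Kit+, a population that the study's text also defines as Sca1-. Both genotypes carry the strain label CD57BL6/J, and the Ripk3-/- mice (labelled Ripk3-KO) lack the kinase Ripk3, a mediator of necroptosis. The labels state no treatment before RNA extraction, whereas the study's text describes LK and LSK cells collected after repeated X-irradiation of mice of both genotypes, and neither source gives an age for these mice. Nothing states how many mice were pooled in a library or whether the libraries came from separate animals, so p-values measure only the spread between these libraries.

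In the ISR, 4 kinases that sense different forms of stress phosphorylate the same serine of eIF2α. This lowers translation initiation in general while the mRNA of Atf4, whose 5′ leader holds upstream reading frames, is translated more. GADD34, the product of Ppp1r15a, is induced downstream of Atf4 and closes the loop by returning phosphatase 1 to eIF2α. Mitochondrial damage reaches this pathway when the inner membrane protease OMA1, which also cleaves the fusion GTPase OPA1, cuts DELE1, and the fragment activates HRI, the product of Eif2ak1. Blood stem cells are known to keep translation low. RNA-seq measures the transcripts and not phosphorylation, translation or cleavage.

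The libraries held 9782166 to 16280811 reads assigned to genes, and 18254 to 20358 gene names above 0. Levels are given as reads per 1000000 (RPM) on one TMM scale over the 8 libraries, unless per exon length is stated, and differences as log2 fold changes of log2(value + 1) from limma with its Benjamini-Hochberg adjusted p. With 2 libraries against 2, an exact permutation test cannot go below a two-sided p of 0.333, so the tests of single genes use the spread that limma pools over all genes. Where groups are said below not to overlap, this describes the libraries and is not a test. The share of all genes that separate in the same way was not counted. Ripk3 lay at 143 and 147 RPM in WT LSK, 2.99 and 0.941 in Ripk3-/- LSK, 164 and 169 in WT LK, and 18.4 and 12.2 in Ripk3-/- LK. The 7 markers listed for LSK cells (Ly6a, which encodes Sca1, among them) were higher in LSK than in LK cells of both genotypes and the 7 for LK cells (Mpo, Elane and Gata1 among them) lower, all 14 with an adjusted p under 0.05 (limma). Kit was found in every library, at 196 to 411 RPM. Transcripts of granulocytes moved with genotype, and 5 of the 10 markers of lineage-positive cells found (Ltf, Ngp, Camp, S100a8 and S100a9) were higher in Ripk3-/- LSK cells, against 0.892% of all genes tested, and 4 of 9 tested in Ripk3-/- LK cells, against 0.1% (limma). None of the 10 was at 0 in all libraries. The summed level of the 10 was 616 and 684 RPM in WT LSK, 1951 and 2318 in Ripk3-/- LSK, 889 and 861 in WT LK, and 1871 and 1869.6 in Ripk3-/- LK. The population markers differed with genotype as well. In Ripk3-/- LSK cells 6 of the 7 LSK markers lay above WT (median log2 fold change 0.36) with Flt3 called (0.78, adjusted p = 0.0298 from limma), and 6 of the 7 LK markers lay below (median -0.38) with Gata1 called (-1.32, adjusted p = 0.0128 from limma). Kit differed by 0.65 in LSK cells (adjusted p = 0.0695 from limma). In Ripk3-/- LK cells 5 of the 7 LSK markers lay above WT (median 0.20) and all 7 LK markers below (median -0.45). In either list 0 were called by limma, edgeR or DESeq2. At an unadjusted p under 0.05 (limma) 1 and 4 passed, beside 915 of all 13949 genes tested. The part of these lineage and population markers in the differences below was not tested. In bulk samples, fewer cells of a type and less RNA per cell cannot be told apart.

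All 10 genes were read in every library, with 60 reads as the lowest count (Eif2ak3, a WT LSK library) and 8370 as the highest (Ppp1r15a, a WT LSK library). Per kilobase of exon (GENCODE M21), Atf4 ranked first in every group, from 159 ± 6.58 RPM per kilobase (SD, n = 2) in Ripk3-/- LK to 271 ± 20.2 in WT LSK. Ppp1r15a was second in 3 groups and behind Eif2s1 in Ripk3-/- LK, at 98.9 ± 20.5 against 127 ± 1.44. In WT LSK cells the libraries of Atf4 and Ppp1r15a overlapped, and so did those of Oma1 and Eif2ak1 and those of Opa1 and Eif2ak2. Oma1 and Eif2ak1 followed these 3 genes, in that order, in every group. Eif2ak3 was last in every group, from 1.16 ± 0.113 RPM per kilobase in WT LSK to 3.77 ± 1.52 in Ripk3-/- LK. In WT LK cells the libraries of Eif2ak2 and Eif2ak4 overlapped as well, and no other neighbours in the order did in any group.

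**Figure D1:**
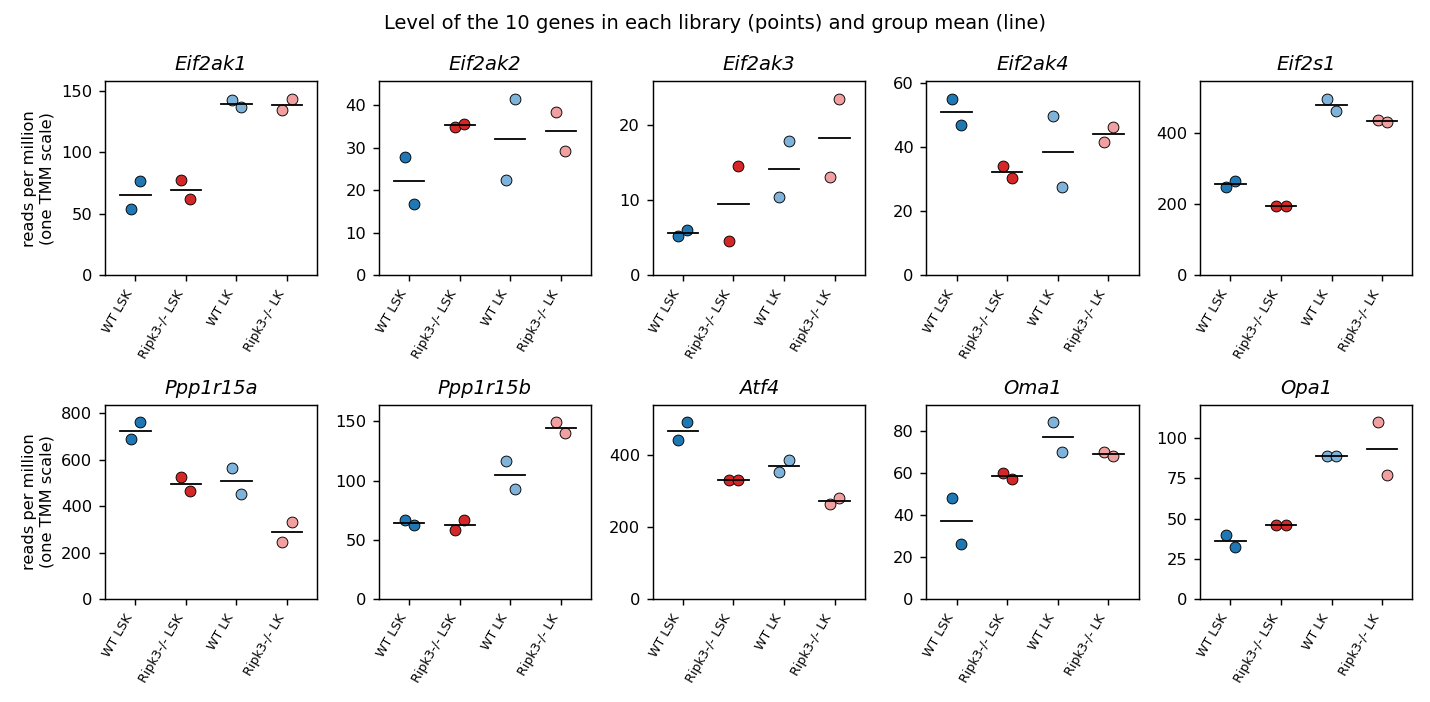
Level of each of the 10 genes in RPM on one TMM scale (vertical axes from 0, a separate range for each gene), with 1 point per library and a line at the mean of the 2 libraries of a group. Ppp1r15a and Atf4 are lower in both Ripk3-/- groups than in the matching WT group, and Eif2ak1, Eif2s1, Ppp1r15b, Oma1 and Opa1 are lower in LSK than in LK libraries of both genotypes.

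The first question was whether loss of Ripk3 altered transcripts of the pathway within each population. In LSK cells 0 of the 10 genes passed an adjusted p of 0.05 (limma), against 2.16% of the 16817 genes tested, of which 1.27% were called lower. At an unadjusted p under 0.05 (limma), 5 of the 10 passed, beside 3011 of all 16817 genes. These were Eif2ak4, Eif2s1, Ppp1r15a, Atf4 and Oma1. edgeR also called 0, beside 209 of all genes, whereas DESeq2 called Atf4 alone (adjusted p = 0.0244), beside 613. In LK cells 1 of the 10, Ppp1r15a, passed and was lower in Ripk3-/- cells, against 0.473% of the 13949 genes tested that were called in either direction and 0.373% called lower. At an unadjusted p under 0.05 (limma), 2 of the 10 passed in LK cells, beside 915 of all 13949 genes. Over the 10 genes the median log2 fold change was 0.03 in LSK and 0.01 in LK cells, beside -0.009 and 0.009 over all genes tested.

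Ppp1r15a (ENSMUSG00000040435.12) lies on the minus strand of GRCm38 at chr7:45522916-45526268 and encodes GADD34, the stress-inducible phosphatase subunit. Its level was 689 and 761 RPM in WT LSK and 527 and 465 in Ripk3-/- LSK. In LK cells it was 564 and 452 RPM in WT and 248 and 333 in Ripk3-/-. Both Ripk3-/- libraries lay below both WT libraries in each population. The log2 fold change was -0.55 (SE 0.17, adjusted p = 0.1 from limma) in LSK and -0.82 (SE 0.17, adjusted p = 0.0268 from limma) in LK, a fold of 1.76 in the second. With DESeq2 the adjusted p was 0.0516 in LSK and 0.00111 in LK cells. The 2 changes differed by 0.27 (95% interval -0.24 to 0.77, adjusted p = 0.734 from limma), so that no difference between the populations was detectable. The call in LK cells ended without WT LK replicate 1 (-0.67, adjusted p = 0.677) or without Ripk3-/- LK replicate 1 (-0.61, adjusted p = 0.9), and with edgeR (adjusted p = 0.0834).

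Atf4 (ENSMUSG00000042406.8), on the plus strand at chr15:80255184-80257541, encodes the transcription factor on which the 4 kinases converge. It was at 443 and 492 RPM in WT LSK and at 332.6 and 333 in Ripk3-/- LSK cells. In LK cells the values were 353 and 387 RPM in WT and 266 and 282 in Ripk3-/-. As for Ppp1r15a, the groups did not overlap in either population. The log2 fold changes were -0.49 (SE 0.16, adjusted p = 0.116 from limma) in LSK and -0.44 (SE 0.16, adjusted p = 0.465) in LK, and neither passed the test. They differed by -0.05 (95% interval -0.53 to 0.42).

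The genotype difference averaged over the 2 populations, a contrast chosen after these values had been seen, was -0.69 for Ppp1r15a (SE 0.12, adjusted p = 0.00287 from limma) and -0.47 for Atf4 (SE 0.11, adjusted p = 0.0382). The other 8 members did not pass in that contrast, in which 1.64% of all 15901 genes tested were called and 1.04% called lower. DESeq2 also called both genes (adjusted p = 1.63e-05 for Ppp1r15a and 0.000565 for Atf4), beside 526 of all genes. Ppp1r15a held without each of the 8 libraries in turn (adjusted p from 0.00214 to 0.0445) and with edgeR (0.0145). Atf4 did not pass without any single one of the 8 libraries (adjusted p from 0.0593 to 0.185), nor with edgeR (0.0682).

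The upstream sequence of both genes is shown because they are the members called in the averaged comparison. The 250 bases before the RefSeq start (GRCm38.p6) are given for Ppp1r15a at chr7:45526269-45526518 (minus strand) and for Atf4 at chr15:80254934-80255183 (plus strand), 5′ to 3′ in the direction of transcription. Capitals mark TGACGTCA, the palindromic cyclic AMP response element, in Ppp1r15a and CCAAT in Atf4.
Ppp1r15a: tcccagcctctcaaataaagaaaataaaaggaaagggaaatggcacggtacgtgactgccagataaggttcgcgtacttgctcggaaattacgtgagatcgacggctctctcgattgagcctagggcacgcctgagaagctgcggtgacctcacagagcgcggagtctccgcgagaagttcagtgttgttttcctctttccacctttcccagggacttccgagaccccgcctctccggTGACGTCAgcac
Atf4: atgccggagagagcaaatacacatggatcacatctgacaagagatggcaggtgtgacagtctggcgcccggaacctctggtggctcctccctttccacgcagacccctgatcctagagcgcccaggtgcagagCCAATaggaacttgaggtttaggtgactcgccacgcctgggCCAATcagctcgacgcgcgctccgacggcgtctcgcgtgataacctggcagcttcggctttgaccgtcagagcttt
In Ppp1r15a the element TGACGTCA starts 12 bases before the annotated start, and it is found in this window of 1.55% of the 32851 RefSeq promoters and of 1 of the 9 members with an entry. The 2 copies of CCAAT in Atf4 start 117 and 76 bases before its start. CCAAT or its complement ATTGG, on either strand, is in 33.8% of all promoters and in 4 of the 9 members (Eif2ak1, Eif2ak3, Atf4 and Opa1). TGATGNAAT, a form of the composite element that ATF4 and C/EBP factors bind, is in 0.816% of all promoters and in 0 of the 9, and TATAAA in 12.4% and in 1, Eif2s1. TGACGTCA reads the same on both strands, and none of the other motifs overlaps it. These matches describe letters in a window and not bound sites.

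Upstream start codons were counted in the 5′ leader of 1 coding transcript a gene (GENCODE M21). Ppp1r15a holds 7 in 764 bases and Atf4 3 in 594 bases. Of the other members, Eif2ak3 and Ppp1r15b hold 3 each, Eif2s1 and Opa1 2 each, Eif2ak2 1, and Eif2ak1, Eif2ak4 and Oma1 0. At least 1 was thus present in 7 of the 10 members, beside 54.4% of 20578 genes, and at least 2 in 6 members, beside 33.5%. The median leader of all these genes was 171 bases long, and the counts were not adjusted for leader length.

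Among the kinases, no difference between genotypes passed the test in either population. Eif2ak1 (ENSMUSG00000029613.15, chr5:143817788-143904251, plus strand) encodes HRI, the kinase that senses heme shortage and relays mitochondrial stress. It was at 53.7 and 76.7 RPM in WT LSK and at 77.2 and 61.9 in Ripk3-/- LSK, groups that overlapped, and the log2 fold change was 0.10 (95% interval -0.38 to 0.58). In LK cells the values were 142 and 137 RPM in WT and 134 and 143 in Ripk3-/-, with a log2 fold change of -0.02 (95% interval -0.49 to 0.46). These are the smallest differences among the 4 kinases, and their signs turned with quantile scaling.

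Eif2ak2 (ENSMUSG00000024079.4, chr17:78852564-78882573, minus strand) encodes PKR, the kinase activated by double-stranded RNA. Its 2 Ripk3-/- LSK libraries, at 34.97 and 35.7 RPM, lay above the WT LSK libraries at 27.9 and 16.7, and the log2 fold change was 0.68 (SE 0.36, adjusted p = 0.33 from limma). Eif2ak4 (ENSMUSG00000005102.13, chr2:118388618-118475234, plus strand) encodes GCN2, which senses amino acid shortage through uncharged tRNA. It showed the opposite order in LSK cells, with 55.1 and 47.0 RPM in WT and 34.0 and 30.5 in Ripk3-/-, a log2 fold change of -0.65 with an SE of 0.31 (limma adjusted p = 0.271). In LK cells the Eif2ak4 libraries overlapped (49.6 and 27.6 RPM in WT, 41.7 and 46.2 in Ripk3-/-), and its 2 genotype changes differed by -0.88 (SE 0.44, adjusted p = 0.509 from limma). Eif2ak3 (ENSMUSG00000031668.14, chr6:70844515-70905245, plus strand), which encodes the endoplasmic reticulum kinase PERK, varied most between replicates. Its Ripk3-/- LSK libraries stood at 4.56 and 14.5 RPM, on either side of the WT values of 5.23 and 6.001. In LK cells the libraries of Eif2ak2 and Eif2ak3 overlapped between genotypes, with log2 fold changes of 0.12 (SE 0.36) and 0.32 (SE 0.55).

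As shares of the 4 kinases per exon base, which need no scaling between libraries, Eif2ak1 made up 45.1% to 60.5% in LSK and 64.1% to 69.8% in LK libraries, ranges that did not overlap. Eif2ak4 held 27.5% and 22.1% in WT LSK, 14.8% and 14.1% in Ripk3-/- LSK, and 7.79% to 14.5% in the LK libraries. Eif2ak3 held 2.98% to 10.1% of the sum over all 8 libraries. Eif2ak1 was the largest share in every library.

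**Figure D2:**
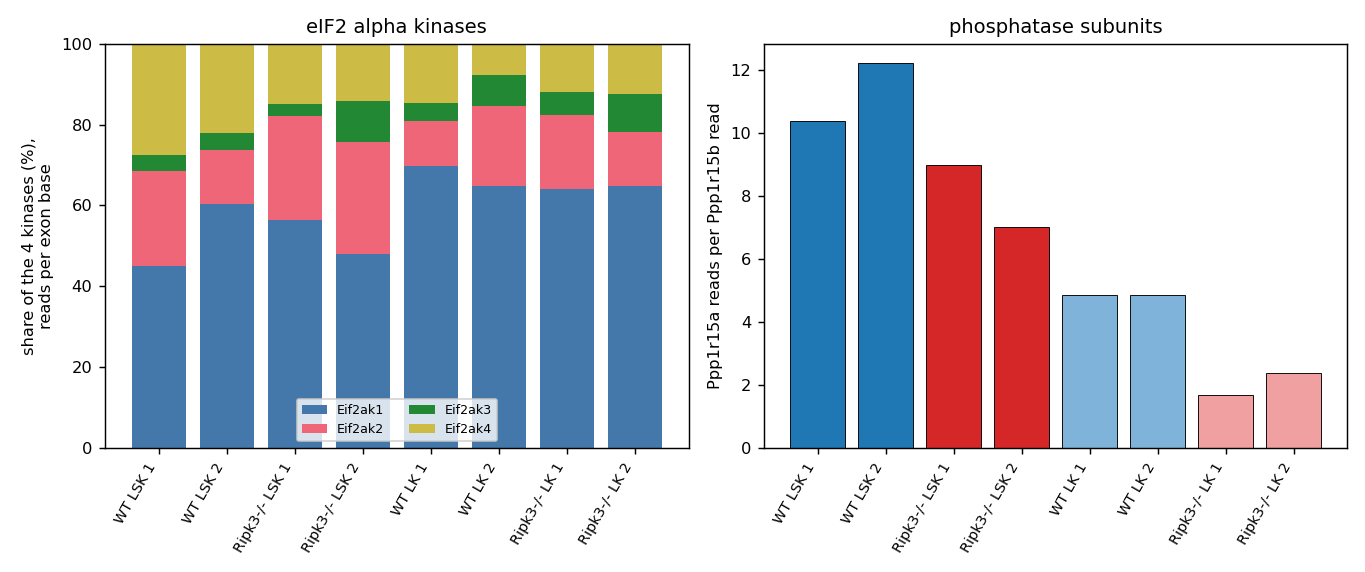
Left, share of each of the 4 kinases in their summed reads per exon base (%), 1 stacked bar per library. Right, reads of Ppp1r15a per read of Ppp1r15b, 1 bar per library on an axis from 0, from 10.4 and 12.2 in WT LSK to 1.66 and 2.38 in Ripk3-/- LK.

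The substrate gene Eif2s1 (ENSMUSG00000021116.10, chr12:78861819-78887010, plus strand) encodes the subunit of eIF2 that carries the phosphorylated serine. Its level was 248 and 263 RPM in WT LSK and 194 and 196 in Ripk3-/- LSK, groups that did not overlap, with a log2 fold change of -0.39 with an SE of 0.16 (limma adjusted p = 0.203). In LK cells it was at 495 and 461 RPM in WT and 436 and 429 in Ripk3-/- (log2 fold change -0.15, SE 0.16), again without overlap. The annotation holds 5 processed pseudogenes with at least 90% identity to Eif2s1 over at least 200 bases, none of which is listed in these files, so reads shared with them could have been assigned to Eif2s1 or lost.

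Ppp1r15b (ENSMUSG00000046062.5, chr1:133131143-133139783, plus strand) encodes CReP, the constitutive counterpart of GADD34. In LSK cells it was at 66.5 and 62.4 RPM in WT and at 58.7 and 66.5 in Ripk3-/-, which overlapped. In LK cells it was higher in both Ripk3-/- libraries (149 and 139.7 RPM) than in the WT libraries (117 and 93.3), with a log2 fold change of 0.46 with an SE of 0.22 (limma adjusted p = 0.764) that did not pass. Reads of Ppp1r15a per read of Ppp1r15b, a ratio formed after the values had been seen, were 10.4 and 12.2 in WT LSK, 8.98 and 6.99 in Ripk3-/- LSK, 4.84 and 4.85 in WT LK, and 1.66 and 2.38 in Ripk3-/- LK. The 4 groups did not overlap in this ratio, which does not depend on the scaling of the libraries.

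Oma1 (ENSMUSG00000035069.3, chr4:103313812-103371868, plus strand) encodes the stress-activated protease of the inner mitochondrial membrane. It was at 48.0 and 26.3 RPM in WT LSK and at 60.04 and 57.2 in Ripk3-/- LSK, with a log2 fold change of 0.70 with an SE of 0.28 (limma adjusted p = 0.194). In LK cells the WT libraries at 84.2 and 70.0 RPM lay just above the Ripk3-/- libraries at 69.9 and 68.4 (log2 fold change -0.16, SE 0.28). The difference between the 2 genotype changes was 0.86 (SE 0.40, adjusted p = 0.478 from limma). Opa1 (ENSMUSG00000038084.16, chr16:29579334-29654884, plus strand), whose product is cleaved by OMA1, stood at 39.9 and 32.6 RPM in WT LSK and 46.2 and 45.9 in Ripk3-/- LSK, with a log2 fold change of 0.34 with an SE of 0.26 (limma adjusted p = 0.511). In LK cells its Ripk3-/- libraries at 109.7 and 76.9 RPM lay on either side of the 2 WT libraries, both at 88.8. In the test of the difference between the genotype changes of LSK and LK cells, 0 of the 10 members passed with limma, edgeR or DESeq2. Of all 15901 genes tested, 0.358% passed with limma. At an unadjusted p under 0.05 (limma) 1 member (Oma1) passed, beside 1613 of all genes tested.

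**Figure D3:**
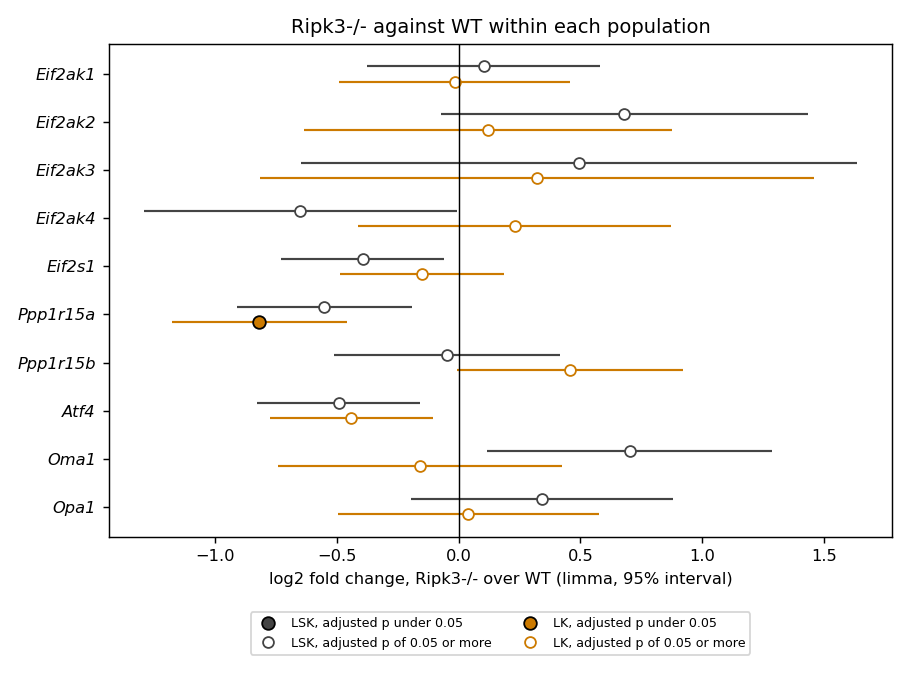
Log2 fold change of Ripk3-/- over WT in LSK and LK cells with 95% intervals from limma, filled where the adjusted p is under 0.05. The single filled point is Ppp1r15a in LK cells, at -0.82.

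Lists of related genes put these values in context. The list of other eIF2 and eIF2B subunits holds 8 genes, and 2 changed in Ripk3-/- LSK cells, against 2.16% of all genes tested. Eif2s3y, the Y-linked gene of the γ subunit of eIF2, had 0 reads in every WT library and 51.5 and 86.4 RPM in Ripk3-/- LSK, at least 258-fold higher against a floor of 3 reads per WT library, a bound that covers counting error only. Eif2s3x, its X-linked counterpart, was at 29.9 and 30.9 RPM in WT LSK and 12.7 and 7.87 in Ripk3-/- LSK, a log2 fold change of -1.52 with an SE of 0.34 (limma adjusted p = 0.0184). In LK cells Eif2s3y was at 53.4 and 58.8 RPM in the Ripk3-/- libraries, at least 229-fold higher, and Eif2s3x did not pass (log2 fold change -0.45, SE 0.34). Genotype and sex of the mice therefore cannot be told apart in any genotype comparison here.

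Of 27 genes known as targets of ATF4 or of its downstream factors, 26 were tested in LSK cells. In Ripk3-/- LSK cells 3 were lower and 0 higher, against 1.27% and 0.892% of all genes tested. These were Atf3 (-1.37, SE 0.19, adjusted p = 0.000226 from limma), a transcription factor induced in the ISR, Phgdh (-0.87, SE 0.19, adjusted p = 0.0179), which opens serine synthesis, and Cth (adjusted p = 0.0391), an enzyme of cysteine synthesis. Atf3 was at 463 and 489 RPM in WT LSK and at 209 and 162 in Ripk3-/- LSK. Cth had 42 and 45 reads in WT LSK cells and 0 in both Ripk3-/- LSK libraries, at least 16.5-fold lower against the floor of 3 reads per library. Of the 24 tested in LK cells, Atf3 alone passed (-1.18, SE 0.19, adjusted p = 0.00275 from limma), with 233 and 273 RPM in WT and 99.2 and 125.5 in Ripk3-/-. Over all genes tested in LK cells, 0.373% were called lower. With edgeR, Atf3 remained the single call of this list in each population. The list median was -0.20 in LSK and -0.29 in LK cells, beside the all-gene medians given above. In LSK cells 18 of the 26 lay below WT, and in LK cells 20 of the 24. At an unadjusted p under 0.05 (limma) 10 and 7 passed, beside 3011 of all 16817 and 915 of all 13949 genes. DESeq2 called 3 and 2 of the list, beside 613 and 177 of all genes. Ddit3, which encodes the ISR factor CHOP, was below WT in each population without passing (-0.78, SE 0.26, adjusted p = 0.132 in LSK and -0.98, SE 0.26, adjusted p = 0.151 in LK, limma).

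Of the 12 regulators of the kinases and phosphatase and the 19 genes of the mitochondrial relay, 0 passed in either genotype comparison with limma or edgeR, with medians of 0.07 and -0.08 in LSK and -0.14 and -0.11 in LK cells. At an unadjusted p under 0.05 (limma), 3 regulators and 3 relay genes passed in LSK cells, beside 3011 of all 16817 genes. In LK cells 0 and 3 passed, beside 915 of 13949. DESeq2 called 1 and 2 in LSK cells, beside 613 of all genes, and 0 of either list in LK cells. With quantile scaling limma called 1 regulator and 2 relay genes lower in LSK cells, beside 236 of all genes. The regulator Dele1, listed in the files under a clone name and the link from OMA1 to HRI, was at 16.6 and 16.1 RPM in WT LSK and at 16.6 and 16.3 in Ripk3-/- LSK. In LK cells it was at 18.7 and 27.6 RPM in WT and at 27.6 and 32.1 in Ripk3-/- (0.37 on the log2 scale, SE 0.38, limma adjusted p = 0.923).

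The immediate-early genes respond within minutes to growth signals and to cell handling. In Ripk3-/- LSK cells 9 of the 16 lay above WT and 7 below (median 0.02). In Ripk3-/- LK cells 3 lay above WT and 13 below (median -0.25). Of the 16, Nr4a1 alone was called lower in Ripk3-/- LSK cells (-1.06, SE 0.18, adjusted p = 0.00172 from limma), against 1.27% of all genes tested. Junb (-0.88, SE 0.17), Jund (-2.26, SE 0.36) and Nr4a1 (-1.10, SE 0.18) were lower in Ripk3-/- LK cells, with adjusted p of 0.0146, 0.00227 and 0.0029 (limma), of which edgeR called Nr4a1 alone. Over all genes tested in LK cells, limma called 0.373% lower. The summed level of the 16 was 24578 and 25747 RPM in WT LSK and 27857 and 24549 in Ripk3-/- LSK, which overlapped, and 13708 and 13183 in WT LK and 10860 and 13350.5 in Ripk3-/- LK. Their part in the values of Ppp1r15a and Atf4 was not tested.

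The second question was how the pathway differed between the LSK and LK populations of one genotype. In WT cells 5 of the 10 members were lower in LSK than in LK cells, against 14.8% of the 15950 genes tested, and 1 was higher, against 9.16%. In Ripk3-/- cells 4 were lower, against 12.2% of 15237, and 1 higher, against 7.95%. The member median was -0.79 in WT and -0.71 in Ripk3-/- cells, beside all-gene medians of 0.077 and 0.002. Without TMM factors the all-gene medians rose to 0.462 and 0.287, so the direction and size of these population differences are relative to the TMM scale. In WT cells 3 members were called higher and 3 lower without TMM factors, beside 2552 and 916 of all 16090 genes tested. With quantile scaling 2 were higher and 2 lower, beside 953 and 998 of 15950. The member median was -0.37 in both. In Ripk3-/- cells the counts were 2 higher and 3 lower (median -0.40) without TMM factors, beside 1884 and 996 of all 15346 genes tested. With quantile scaling they were 2 higher and 4 lower (median -0.55), beside 1186 and 1217 of 15237.

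**Figure D4:**
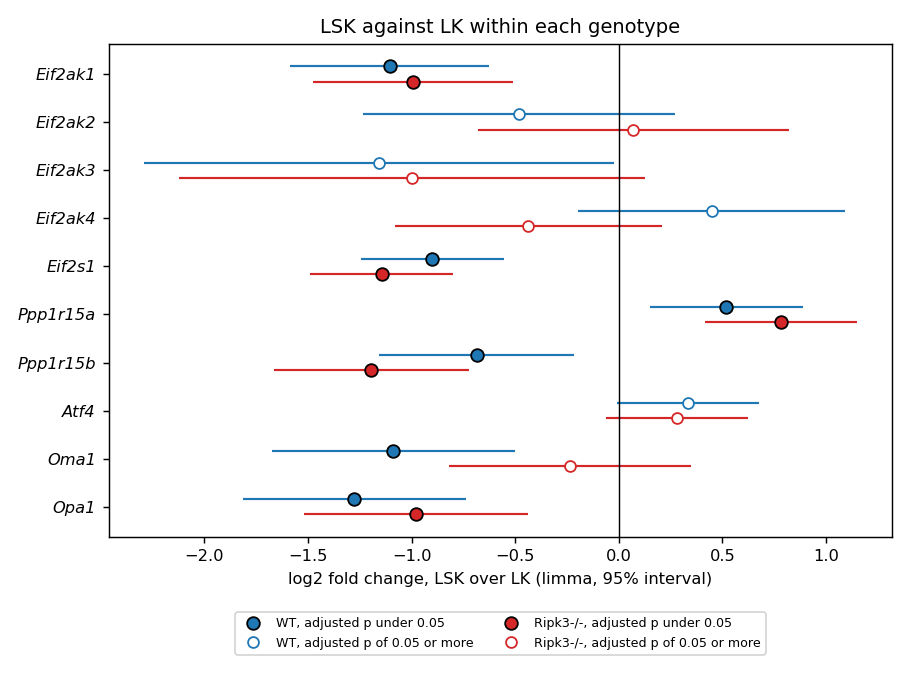
Log2 fold change of LSK over LK in WT and Ripk3-/- cells with 95% intervals from limma, filled where the adjusted p is under 0.05. Eif2ak1, Eif2s1, Ppp1r15b and Opa1 are filled to the left of 0 in both genotypes, and Ppp1r15a to the right.

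Opa1 and Eif2ak1 were the members furthest below LK levels in WT LSK cells among those called. Opa1 differed by -1.28 (SE 0.26, adjusted p = 0.00114 from limma) in WT and -0.98 (SE 0.26, adjusted p = 0.00927) in Ripk3-/- cells. Eif2ak1 differed by -1.11 (SE 0.23, adjusted p = 0.00148 from limma) and -0.99 (SE 0.23, adjusted p = 0.00359). On the TMM scale every LSK library of Eif2ak1 lay below every LK library, as did those of Eif2s1, Ppp1r15b, Oma1 and Opa1. In Ripk3-/- cells Opa1 lost its call without Ripk3-/- LSK replicate 2 (adjusted p = 0.0508) or Ripk3-/- LK replicate 1 (0.173), and Eif2ak1 without Ripk3-/- LSK replicate 2 (0.0541) or Ripk3-/- LK replicate 2 (0.0534), all from limma. With quantile scaling the WT difference of Eif2ak1 was -0.66 (adjusted p = 0.0571 from limma). The exons of Eif2ak1 overlap those of Aimp2, a gene on the opposite strand, and although the kit was stranded, whether strand was used in counting is not given in the sources used here. Aimp2 itself was at 98.7 to 111 RPM in LSK and 101 to 167 in LK libraries. The same limit holds for other members with exons that overlap genes on the opposite strand. The overlaps reach 640 bases for Ppp1r15b, 221 for Eif2ak3, 174 for Eif2ak2 and 11 for Ppp1r15a, beside 487 for Eif2ak1 with Aimp2.

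Eif2s1 was lower in LSK cells by a log2 fold change of -0.90 with an SE of 0.17 (limma adjusted p = 0.000453) in WT and -1.15 (SE 0.17, adjusted p = 2.55e-05) in Ripk3-/- cells. Ppp1r15b differed by -0.69 (SE 0.23, adjusted p = 0.0312 from limma) and -1.20 (SE 0.23, adjusted p = 0.000534). In WT cells the call for Ppp1r15b ended without WT LSK replicate 1 (-0.73, adjusted p = 0.0681), WT LSK replicate 2 (-0.64, 0.0997) or WT LK replicate 1 (-0.53, 0.248), and its difference was -0.27 with quantile scaling and also without TMM factors. The WT difference of Eif2s1 was -0.37 with quantile scaling (adjusted p = 0.116 from limma). Oma1 was lower in WT LSK cells (-1.09, SE 0.28, adjusted p = 0.00778 from limma) and did not pass in Ripk3-/- cells (-0.24, SE 0.28, adjusted p = 0.63), and the test of the difference between these 2 values is the one already given, which did not pass. The WT call for Oma1 ended without WT LSK replicate 2 (-0.67, adjusted p = 0.109) or WT LK replicate 1 (-0.96, adjusted p = 0.1).

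Ppp1r15a alone was called higher in LSK cells, by 0.52 (SE 0.18, adjusted p = 0.0369 from limma) in WT and 0.78 (SE 0.18, adjusted p = 0.00265) in Ripk3-/- cells. In WT cells this ended without WT LSK replicate 1 (0.59, adjusted p = 0.0929), WT LSK replicate 2 (0.45, 0.185) or WT LK replicate 2 (0.36, 0.246), with edgeR (0.51, 0.0584), with median-centred libraries (0.49, 0.064) and without a filter (0.52, 0.118), and in Ripk3-/- cells without Ripk3-/- LK replicate 1 (0.57, 0.0794). Both LSK libraries of Atf4 also lay above both LK libraries in each genotype, by 0.33 (SE 0.16, adjusted p = 0.139 from limma) and 0.28 (SE 0.16, adjusted p = 0.262), without passing. Atf4 passed with quantile scaling (0.80 and 0.72) and without TMM factors (0.76 and 0.60), and in WT with DESeq2 (0.41, adjusted p = 0.0387). Eif2ak2, Eif2ak3 and Eif2ak4 were called in neither genotype on the TMM scale with limma. In WT cells Eif2ak4 (0.45, SE 0.31) was called higher without TMM factors (0.86, adjusted p = 0.0459 from limma), and Eif2ak3 lower with quantile scaling (-1.72). The log2 fold change of Eif2ak3 was -1.16 (SE 0.55, adjusted p = 0.125 from limma) in WT and -0.996 (SE 0.54, adjusted p = 0.22) in Ripk3-/- cells.

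The related lists differed in direction between LSK and LK cells. Over all genes tested, 14.8% were called lower and 9.16% higher in WT, and 12.2% and 7.95% in Ripk3-/- cells. The all-gene counts under the other scalings are those given above. Of the 19 genes of the mitochondrial relay, 10 were lower and 0 higher in WT cells (limma), with a median of -0.80, and 10 were lower and 0 higher in Ripk3-/- cells. The 3 with the largest change in WT were Mfn2 (-1.39, SE 0.30), a fusion GTPase of the outer membrane, Hspd1 (-1.38, SE 0.17), the mitochondrial chaperonin, and Afg3l2 (-1.15, SE 0.25), a protease of the inner membrane. With quantile scaling 3 of the 19 stayed lower in WT, and without TMM factors 5. Of the other eIF2 and eIF2B subunits, 4 of 7 tested were lower in WT LSK cells, led by Eif2b5 (-1.68, SE 0.27), Eif2b4 (-0.92, SE 0.23) and Eif2b1 (-0.82, SE 0.23), which encode subunits of the nucleotide exchange factor that phosphorylated eIF2α inhibits. Without TMM factors 1 of the 7 was called, as with quantile scaling.

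Of the 12 regulators, 5 were lower in WT LSK cells, against 14.8% of all genes tested. They were led by Dnajc3 (-1.33, SE 0.20), an inhibitor of the kinases, the chaperone Hspa5 (-1.32, SE 0.15), also called BiP, and Gcn1l1 (-1.28, SE 0.27), the activator of GCN2. Without TMM factors or with quantile scaling 3 of the 12 were called lower in WT. In Ripk3-/- cells 4 were lower, against 12.2% of all genes tested. Impact, an inhibitor of GCN2, was the 1 called higher (1.09, SE 0.34, adjusted p = 0.0254 from limma), against 7.95%. The ATF4 targets were split, with 4 higher and 8 lower of 24 in WT, against 9.16% and 14.8% of all genes tested. In Ripk3-/- cells 5 were higher and 8 lower, against 7.95% and 12.2%. This balance turned with the scaling, to 6 higher and 3 lower in WT without TMM factors (median 0.14, against -0.28 on the TMM scale) and 5 higher and 3 lower with quantile scaling (median 0.04). In Ripk3-/- cells it was 7 higher and 6 lower without TMM factors and 7 higher and 5 lower with quantile scaling. The 3 largest in WT were all higher in LSK cells, Vldlr (3.32, SE 0.38), Gdf15 (2.81, SE 0.45) and Nupr1 (2.70, SE 0.60), a lipoprotein receptor, a secreted stress cytokine and a stress-induced nuclear protein. Asns (-2.18, SE 0.28) and Aars (-1.30, SE 0.26), enzymes of asparagine synthesis and tRNA charging, were among the 8 lower. The immediate-early list was higher in LSK cells at 12 of 16 genes in WT, against 9.16% of all genes tested, and 15 of 16 in Ripk3-/- cells, against 7.95%. In WT it was led by Nr4a1 (3.07, SE 0.18), Klf4 (2.48, SE 0.30) and Fosb (1.86, SE 0.21). Its summed level was 24549 to 27857 RPM in LSK and 10860 to 13708 in LK libraries. The part of these genes in the higher Ppp1r15a of LSK cells was not tested.

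**Figure D5:**
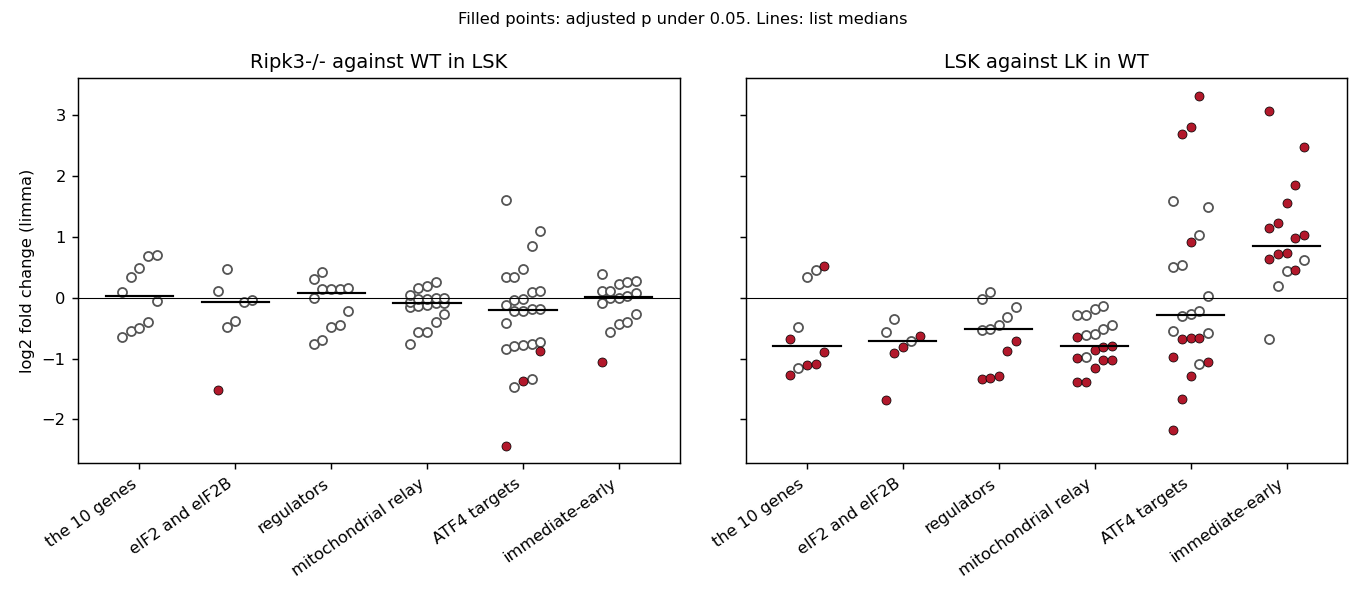
Log2 fold change from limma of every gene tested in the 10 members and 5 related lists, for Ripk3-/- over WT in LSK cells (left) and LSK over LK in WT cells (right), with lines at the medians and Eif2s3y left out for scale. On the right the medians run from -0.80 for the mitochondrial relay to 0.86 for the immediate-early genes.

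Across the 8 libraries, which fall into 2 populations, the members with the most similar levels were Ppp1r15a and Atf4, with Pearson's r of 0.91 of log2(RPM + 1), followed by Eif2ak1 and Eif2s1, also at 0.91. Among the 10700 genes with a mean of at least 5 RPM, the 3 most like Atf4 were Tnfrsf12a (0.988), Atf3 (0.985) and Cxcl2 (0.973). Those most like Ppp1r15a were Junb (0.973) and Fbxo6 (0.969), followed by a transcript listed under a clone name. Eif2ak1 was most like Dlst (0.998), Gcn1l1 (0.997) and Sec24d (0.997), and Oma1, after a transcript under a clone name, was most like Slc20a2 (0.985) and Sort1 (0.981). The points share library depth, population and genotype, so these values are a description only.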

How the data were processed

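RNA-seq libraries of sorted LSK and LK cells of WT and Ripk3-/- mice were compared (8 libraries, 2 per group). The members, the related lists and the tests were chosen with earlier results of these data known. The submitters' processing notes name TopHat and mm9. The counter and annotation are not given in the sources used here. The authors deposited 1 signal value per gene and library under a heading that names FPKM, but 100% of the nonzero values of a library came out as integers (tolerance 0.01) when divided by one step, so the deposited signal is reads per gene per 1000000 divided by a TMM factor, without division by gene length. The factors equalled those computed by edgeR within each population (largest difference 7.8e-12). Reads were recovered by dividing by the step, and gave 9782166 to 16280811 reads per library. LSK and LK libraries had been scaled separately, so levels and population comparisons use one TMM scale over the 8 libraries, and genotype comparisons use the deposited signal. Genes were matched between libraries by name, because the order of names differs between the LSK and LK files.

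limma 3.58.1 (lmFit, eBayes with a trend) was fitted in R 4.3.3 to log2(value + 1) of all 8 libraries with 4 group means, for genes with a mean of at least 1 over the libraries compared, two-sided and with Benjamini-Hochberg adjustment over all genes tested. This scale understates changes of genes with low values. edgeR 4.0.16 and DESeq2 1.42.0 were run on the recovered reads as alternatives. Also tried were 0.1 as pseudocount, dropping the filter or raising it to 5, median-centred and quantile scaling, one scale for the genotype comparisons, a fit of only the libraries compared, a replicate block and leaving out each library in turn. The averaged genotype comparison, the values without TMM factors and a crossed block were chosen after seeing the data. The limma and edgeR fits were run on simulated counts with known fold changes and independent libraries. That simulation held no difference of sex or cell composition between groups, so it says nothing on those. All 10 members are named, with Ripk3, Dele1, Ddit3, Eif2s3x and Eif2s3y. Every gene of the related lists is named that had an adjusted p under 0.05 between genotypes. So is every one called in the test of the difference between the genotype changes of LSK and LK cells. In each of these lists the 3 called genes with the largest change between LSK and LK cells in WT are named as well. Asns, Aars, Impact, Aimp2 and the markers Flt3, Gata1, Kit and S100a8 were named after their values had been seen. Likeness is Pearson's r over the 8 libraries. Positions and exon lengths are from GENCODE M21 (GRCm38) and not from the authors' build, upstream sequences are from RefSeq (GRCm38.p6), in which 9 of the 10 members matched, and near-identical transcripts were sought with BLAST 2.17.0 (at least 90% identity over at least 200 bases).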

Additional observations from a re-analysis of the deposited data

Results flagged for a closer look

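The genotype changes of LSK and LK cells differed, by a limma test of the difference itself, at 3 of the listed genes and at 0 of the 10 members. Over all genes tested, 0.358% were called. Of the 3, Ripk3 was also called by edgeR (adjusted p = 0.0280) and DESeq2 (5.97e-06), S100a8 by DESeq2 (0.000415) but not edgeR (0.0530), and Jund by neither (0.166 with edgeR and 0.318 with DESeq2). Ripk3, the deleted gene, was lower in Ripk3-/- cells by a log2 fold change of -5.78 in LSK and -3.39 in LK, a difference of -2.40 (SE 0.51, adjusted p = 0.0343 from limma). Jund, an immediate-early gene, changed by a difference of 2.55 (SE 0.51, adjusted p = 0.0222 from limma), with 380 and 313 RPM in WT LSK, 487 and 363 in Ripk3-/- LSK, 719 and 429 in WT LK, and 58.8 and 226 in Ripk3-/- LK. S100a8, a granulocyte gene, differed by 1.23 (SE 0.24, adjusted p = 0.0216 from limma), with 203 and 239.8 RPM in WT LSK, 553 and 760.4 in Ripk3-/- LSK, 494 and 503 in WT LK, and 643 and 605 in Ripk3-/- LK. Groups of 2 libraries were too small for a search for single outlying libraries.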

How the results depend on the processing

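In LSK cells 0 members were called between genotypes except with DESeq2 (1, Atf4) and in the average over both populations (2). In LK cells the single call, Ppp1r15a, became 0 without a filter, with edgeR and with quantile scaling, ranged from 0 to 1 when each library was left out, and was 2 in the average. The average called 2 members with DESeq2, and 1 with edgeR, quantile scaling and the replicate block. Between LSK and LK cells 3 to 5 members were called in WT and 3 to 5 in Ripk3-/- cells without each library, with 3 without WT LSK replicate 2, Ripk3-/- LSK replicate 2 or Ripk3-/- LK replicate 1. With the replicate block 4 were called in WT (6 without it) and 5 in Ripk3-/- cells, and the crossed block also called 5. Same-numbered libraries did not deviate together (r of -0.0109, -0.0993, -0.0138 and -0.149 over 15757 genes), so the numbers were not taken as pairs. The block moved no other count of members, and over all genes it gave 289 in place of 363 calls in LSK and 79 in place of 66 in LK cells.

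Of 140 member values of the genotype effect in LSK cells under alternatives, 134 kept direction and side of the threshold, as did 126 of 140 in LK cells. The same held for 162 of 170 values of the difference between these genotype effects. It held for 115 of 140 for LSK against LK in WT and 140 of 150 in Ripk3-/- cells. Signs turned for Eif2ak1 with quantile scaling (-0.03 in LSK, 0.05 in LK and -0.08 for their difference), for Dele1 in LSK with quantile scaling (-0.17) and DESeq2 (-0.03), for Ddit3 in the difference with quantile scaling (-0.02) and for Oma1 between Ripk3-/- LSK and LK cells without TMM factors (0.08). Without each library in turn, Eif2ak1 ranged from -0.15 to 0.36 in LSK, -0.06 to 0.03 in LK, -0.13 to 0.37 in the difference and -0.08 to 0.17 in the average. In LSK cells the ranges were -0.27 to 1.26 for Eif2ak3, -0.15 to 0.05 for Ppp1r15b and -0.02 to 0.02 for Dele1. In LK cells they were -0.31 to 0.56 for Eif2ak2, -0.07 to 0.71 for Eif2ak3, -0.17 to 0.64 for Eif2ak4 and -0.22 to 0.30 for Opa1. For the difference they were -0.13 to 0.02 for Atf4, -0.08 to 0.48 for Ddit3 and -0.59 to 0.93 for Eif2ak3, and for LSK against LK in Ripk3-/- cells -0.12 to 0.26 for Eif2ak2. The cause of these turns was not tested.

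Over all genes, calls between genotypes in LSK cells were 363, and 152 without a filter, 209 with edgeR, 613 with DESeq2, 195 from the LSK libraries alone and 92 to 155 without each library. In LK cells they were 66, and 9, 39 with quantile scaling, 177 with DESeq2, 125 from the LK libraries alone and 13 to 99. For the difference they were 57, and 3 without a filter, 155 with DESeq2 and 16 to 92, and for the average 260, and 526 with DESeq2 and 100 to 201. Between LSK and LK cells 3814 genes were called in WT and 3072 in Ripk3-/- cells, and without a filter 2448 and 1935. Quantile scaling left 1951 calls in WT, and without each library 1570 to 2586 in WT and 1492 to 2530 in Ripk3-/- cells were called. Of the calls, 38.3% in WT and 39.5% in Ripk3-/- cells were higher in LSK cells, 48.8% in WT with quantile scaling, and 73.6% and 65.4% without TMM factors.

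With 2 libraries per group the depth and spread limited low genes most, and the 95% interval of Eif2ak3 in LSK cells ran from -0.65 to 1.64.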
